A study of Mus musculus with 39 samples.

Results

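The 6 libraries described here are labelled as granulocytic (G) sorts of mouse spleen. Of these, 3 are from APCmin/+ mice and 3 from BALB/c mice, out of 39 libraries in the series. They were chosen by their labels: each comes from a spleen, is a G sort, and carries one of these 2 mouse names. APCmin/+ mice carry 1 mutant copy of Apc, a nonsense allele of a Wnt pathway regulator, and develop intestinal tumours. The BALB/c mice are labelled immune-deficient, and neither the nature of that deficiency nor the background strain, age or sex of either kind of mouse is given in the sources used here. Strain, Apc genotype and immune status therefore go together in every comparison, and their parts cannot be told apart. The series also holds monocytic (M) and combined (G+M) sorts of APCmin/+ and BALB/c spleen, which the labels do not tie to the animals of the G sorts, and sorts of APCmin/+ intestine and of newborn C57BL/6 bone marrow at postnatal day 7. The sources do not name the surface markers of the G gate.

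Granulocytic myeloid-derived suppressor cells are immature and activated neutrophils that restrain T cells. They are sorted together with any other spleen cell that passes the gate, and the spleen is rich in B cells and in red pulp macrophages, which clear old red cells and recycle their iron under the transcription factor Spic. Mouse spleen also makes red cells when demand is high, under the transcription factor Klf1. Inbred strains differ in several clusters of immune genes, among them the Trim5-like genes, the Ifi200 family, the major histocompatibility complex (MHC) and the Klra receptors of natural killer cells.

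Values are TPM, a length-scaled transcript abundance with the same total in every library, as the authors deposited them, and the depth behind them is unknown. Of 53465 genes, 14160 had at least 1 TPM in at least 3 of the 6 libraries and were tested as log2(TPM + 1) with limma, so that fold changes of low genes are understated. A gene was called when its Benjamini-Hochberg adjusted p was under 0.05 and its change was at least 2-fold. Every fold change is APCmin/+ over BALB/c.

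Promoters of a strain-variable gene cluster and of 1 Ifi200 gene are shown first. Trim12a, Trim5, Trim30d and Trim34b belong to a gene cluster on chromosome 7, and Ifi213 on chromosome 1 is the Ifi200 gene with the largest rise. They are shown because Trim12a, Trim5, Trim30d and Ifi213 were higher in APCmin/+ cells and Trim34b was lower, as described below the sequences. The 250 bases upstream of each RefSeq start are given 5′ to 3′ on the gene's own strand, from GRCm38.p6, which is the C57BL/6J reference. BALB/c sequence was not read. Capitals mark matches, on either strand, of GAAA, any 2 bases and GAAA, the core of the interferon-stimulated response element. In order, the windows are chr7:104315496-104315745 (minus strand), chr7:104288107-104288356 (minus), chr7:104507850-104508099 (minus), chr7:104329221-104329470 (plus) and chr1:173599273-173599522 (minus).
Trim12a: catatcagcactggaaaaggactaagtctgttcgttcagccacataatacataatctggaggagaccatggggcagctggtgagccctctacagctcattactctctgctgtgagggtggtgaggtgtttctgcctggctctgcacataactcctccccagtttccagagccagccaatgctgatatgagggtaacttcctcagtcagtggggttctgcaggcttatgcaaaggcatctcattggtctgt
Trim5: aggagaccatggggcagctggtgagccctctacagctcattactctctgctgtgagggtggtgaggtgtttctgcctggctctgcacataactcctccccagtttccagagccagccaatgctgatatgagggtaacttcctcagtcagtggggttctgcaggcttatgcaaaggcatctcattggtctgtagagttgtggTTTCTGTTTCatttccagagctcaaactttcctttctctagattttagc
Trim30d: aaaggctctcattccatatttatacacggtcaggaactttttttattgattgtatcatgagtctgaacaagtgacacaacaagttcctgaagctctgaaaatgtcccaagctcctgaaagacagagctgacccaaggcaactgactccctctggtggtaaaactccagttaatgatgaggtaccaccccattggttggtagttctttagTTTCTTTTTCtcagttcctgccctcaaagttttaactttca
Trim34b: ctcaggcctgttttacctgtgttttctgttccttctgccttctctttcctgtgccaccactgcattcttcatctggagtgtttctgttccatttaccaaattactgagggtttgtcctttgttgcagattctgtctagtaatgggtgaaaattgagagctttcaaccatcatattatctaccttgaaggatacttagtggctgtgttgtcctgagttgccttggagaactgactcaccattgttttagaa
Ifi213: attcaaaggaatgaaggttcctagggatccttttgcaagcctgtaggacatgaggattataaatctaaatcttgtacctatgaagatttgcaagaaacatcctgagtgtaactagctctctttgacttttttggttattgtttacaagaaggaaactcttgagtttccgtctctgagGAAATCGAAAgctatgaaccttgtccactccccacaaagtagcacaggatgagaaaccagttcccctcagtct
The motif stood 49 bases upstream of the start in Trim5, 41 in Trim30d and 73 in Ifi213, and was not in the windows of Trim12a and Trim34b. It was present in 3.46% of the 27025 genes with a promoter in the table. In the Trim5-like and Gvin1 list 4 of 9 genes with a promoter held it, in the Ifi200 family 8 of 11, and in the interferon response list 10 of 19. None of 19 erythroid and none of 13 red pulp macrophage genes with a promoter held it. The windows of Trim12a and Trim5 share an identical run of 191 bases, which starts at base 60 of the first and at base 1 of the second. The run reaches the downstream end of the Trim12a window, and the motif of Trim5 lies downstream of the run. The bases of Trim12a that would correspond to this motif were thus not read, and its absence holds for the window only.

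The identity of the cells was checked against marker genes. S100a8, a calprotectin subunit of neutrophils, was at 7221, 38461 and 16619 TPM in the APCmin/+ libraries 1 to 3, against 5585, 6510 and 3875 TPM in the BALB/c libraries. Csf3r, the receptor for the neutrophil growth factor G-CSF, was at 1366, 1679 and 3456 TPM against 1854, 1409 and 1094 TPM. Neutrophil transcripts were therefore abundant in all 6 libraries. B cell transcripts were too: the summed level of 18 B cell genes was 16751 to 29838 TPM in APCmin/+ and 27762 to 33061 TPM in BALB/c sorts. The sum of 20 mature neutrophil genes was below the same library's B cell sum in BALB/c (22728, 23025 and 15968 TPM). It was also below it in APCmin/+ library 1 (23134 TPM), and above it in APCmin/+ libraries 2 and 3. Sums of unlike lists do not measure shares of cells. Cd3e, a subunit of the T cell receptor complex, was at 12.5 to 18.9 TPM in APCmin/+ and 11.6 to 16.5 TPM in BALB/c sorts. All 6 libraries had Xist, the transcript of the inactive X chromosome, at 349 to 469 TPM in APCmin/+ and 471 to 477 TPM in BALB/c cells, with the Y-linked Ddx3y at no more than 0.04 TPM. Apc was at 24.96, 17.4 and 25.6 TPM in APCmin/+ cells and 26.3, 26.1 and 23.4 TPM in BALB/c cells (log2 fold change -0.17 ± 0.17 SE, limma adjusted p = 0.483). A nonsense allele need not lower the transcript, so this value does not check the genotype label.

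Many genes differed between APCmin/+ and BALB/c cells. limma called 1543 of 14160 genes, or 10.9%, with 458 higher (3.23%) and 1085 lower (7.66%) in APCmin/+ cells. Leaving out each library in turn gave 1240 to 2090 calls. Without overlap between the 3 and 3 libraries were 6603 genes, or 46.6%. The median log2 fold change over all tested genes was -0.22, and with libraries rescaled by median ratios it was -0.02. That rescaling raised the share of calls that were higher in APCmin/+ cells to 39.4%, against 29.7% as deposited. The APCmin/+ libraries varied more among themselves: the median SD of a gene was 0.287 on the log2 scale in APCmin/+ and 0.0952 in BALB/c sorts. Correlations across genes were 0.959 to 0.973 within APCmin/+, 0.985 to 0.988 within BALB/c, and 0.889 to 0.925 between them.

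**Figure D1:**
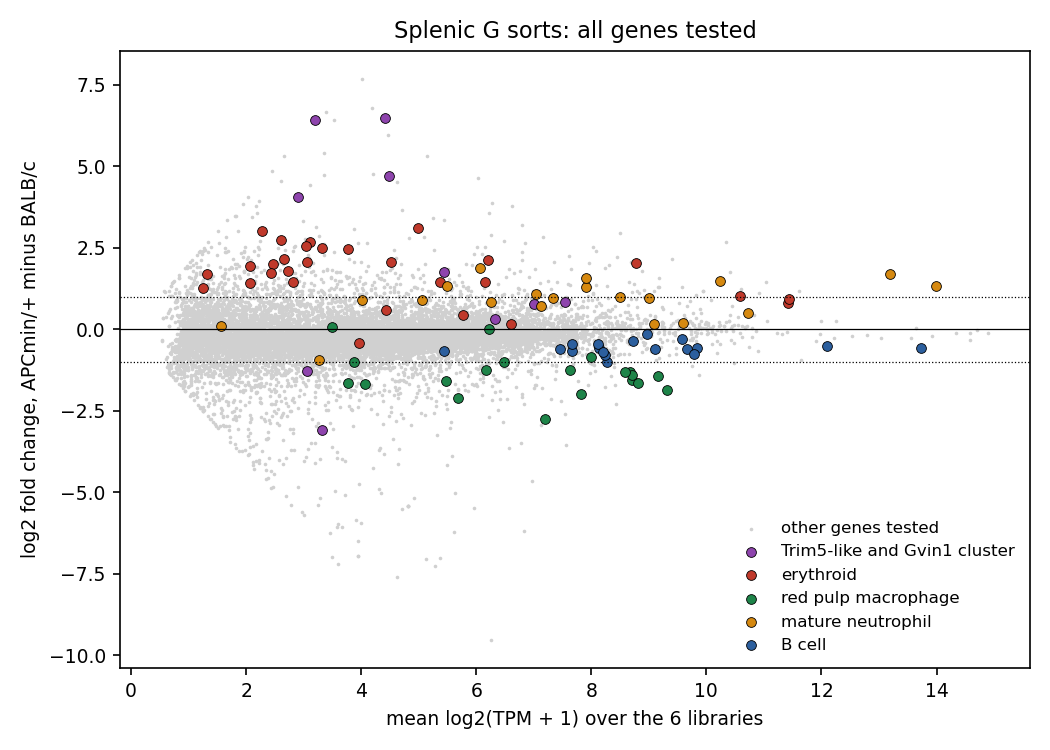
Log2 fold change (APCmin/+ minus BALB/c, splenic G sorts) against mean log2(TPM + 1) over the 6 libraries, 1 point per tested gene; colours mark 5 gene lists and dotted lines a 2-fold change. Trim12a and Gvin1 lie above 6, most erythroid genes above 1, and most red pulp macrophage genes below -1.

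Calls were spread unevenly over kinds of genes. Of 11679 protein-coding genes 9.12% were called, of 790 pseudogenes 24.3%, and of 274 immunoglobulin or T cell receptor segments 40.1%. In 461 of the 1543 calls all 9 BALB/c libraries of the series, over the G, M and G+M sorts, lay beyond all 30 libraries of the other mice, and 377 of these 461 were lower in APCmin/+ cells. Such genes made up 142 of the 192 called pseudogenes and 218 of the 1065 called protein-coding genes. A further 338 calls separated all APCmin/+ from all BALB/c spleen libraries, and the other 744 met neither criterion. All reads were aligned to mm10, the C57BL/6J genome, and the part of that choice in the BALB/c values was not tested.

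The Trim5-like genes and their neighbour Gvin1 held the largest rises. Trim5 is known in primates as a factor that blocks incoming retroviral capsids, and the mouse genes are its relatives. Trim12a (chr7:104299894-104315466, minus strand, protein-coding) was at 194, 179 and 236 TPM in APCmin/+ libraries and at 1.39, 1.35 and 1.06 TPM in BALB/c libraries. No value of one group came near the other (log2 fold change 6.49 ± 0.15 SE, limma adjusted p = 4.34e-07). Over the whole series Trim12a was at 15.2 to 236 TPM in the 30 libraries of APCmin/+ and C57BL/6 mice and at most 1.51 TPM in the 9 BALB/c libraries. Gvin1, a very large GTPase induced by interferon, was at 93.5, 66.1 and 94.6 TPM in APCmin/+ cells and was listed at 0 in the 3 BALB/c G sorts (adjusted p = 6.24e-07).

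Trim30d was at 92.3, 92.1 and 175 TPM in APCmin/+ cells, against 2.88, 3.10 and 4.32 TPM in BALB/c cells (log2 fold change 4.71 ± 0.27 SE, limma adjusted p = 2.44e-05). Trim5 was at 36.9, 21.7 and 32.1 TPM against 0.75, 0.83 and 0.92 TPM (4.06 ± 0.21 SE, adjusted p = 1.44e-05). Trim34a rose less, with a log2 fold change of 1.76. The cluster did not move as a block. Trim34b was at 2.36, 1.73 and 3.39 TPM in APCmin/+ and 28.6, 25.6 and 30.6 TPM in BALB/c sorts (-3.09 ± 0.20 SE, adjusted p = 4.74e-05), and Trim30c also fell (-1.28). Trim12c, a paralog of Trim12a, was at 78.8, 78.5 and 111 TPM against 71.3, 72.5 and 68.8 TPM (0.31, adjusted p = 0.191). Of the 10 members, all tested, 5 rose, 2 fell and 3 were not called (median 1.30, against -0.22 over all genes). Over all genes 3.23% rose and 7.66% fell. Of the 7 called members, 6 separated the 9 BALB/c libraries from the other 30, as did 461 of all 1543 calls. Trim34a and Trim34b, like Trim12a, Trim12c and Trim5, are similar in sequence, and a shift of reads between copies would raise one and lower the other. That was not tested.

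**Figure D2:**
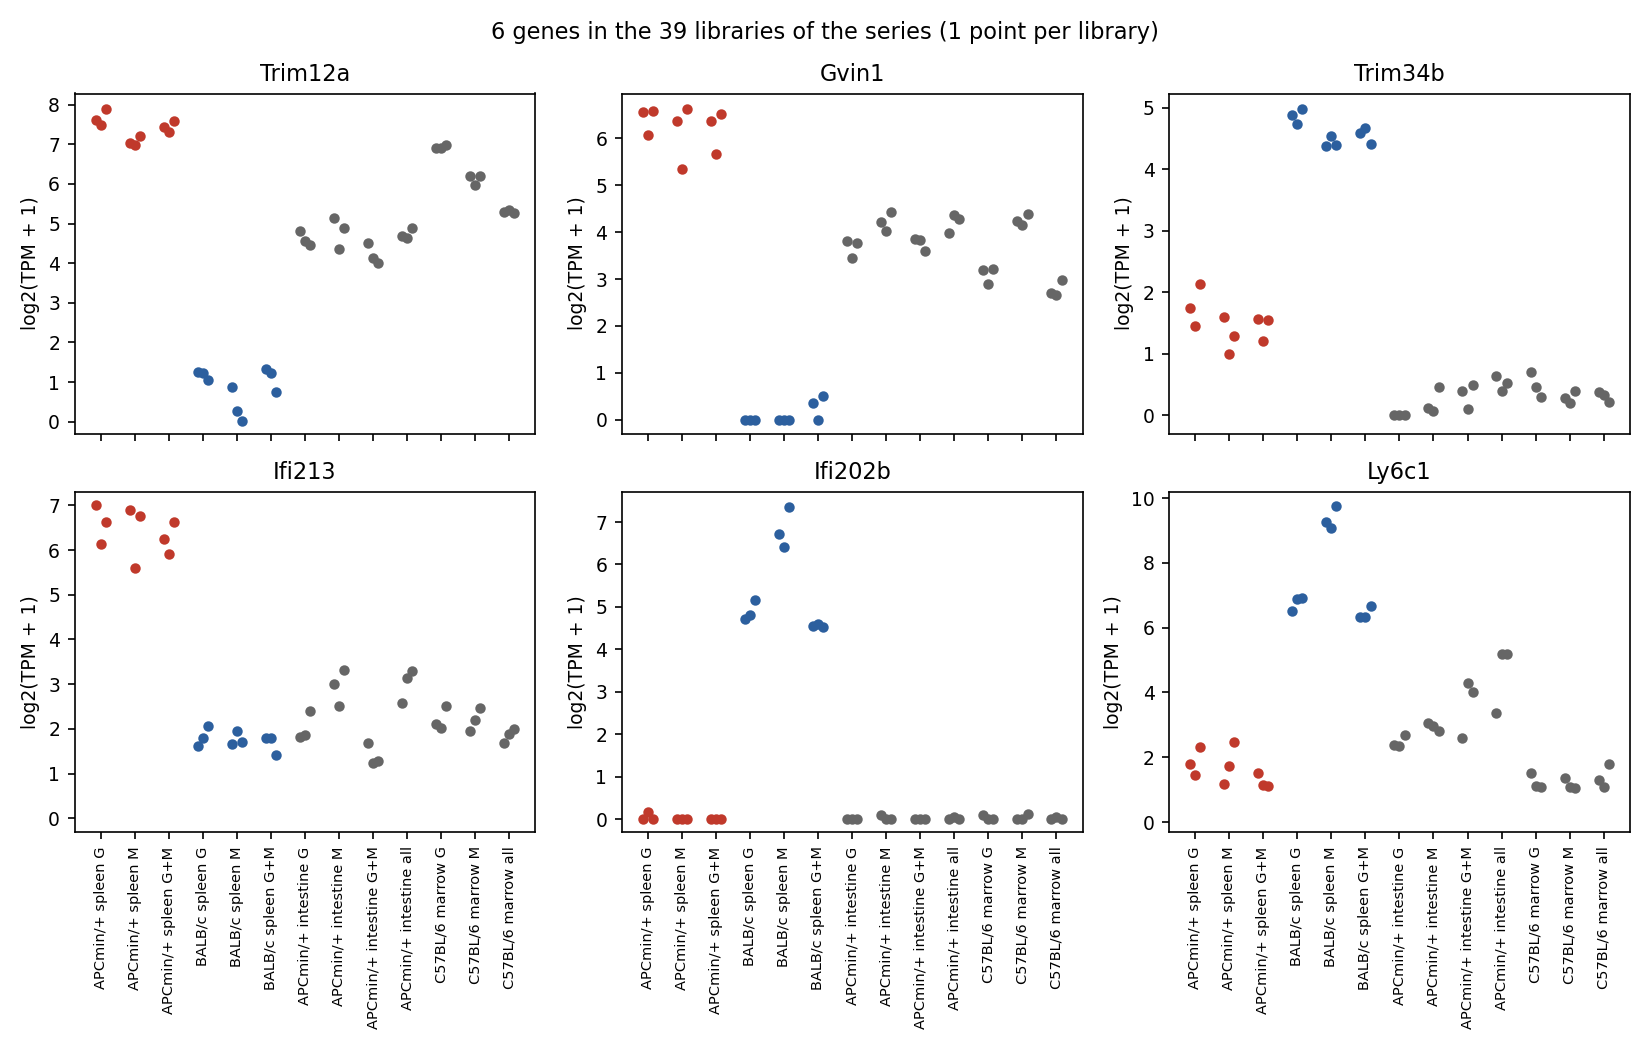
Log2(TPM + 1) of 6 genes in the 39 libraries, 1 point per library, with APCmin/+ spleen in red, BALB/c spleen in blue, and APCmin/+ intestine and C57BL/6 marrow in grey. Trim12a, Gvin1, Trim34b, Ifi202b and Ly6c1 separate the 9 BALB/c libraries from the other 30, whereas Ifi213 separates APCmin/+ from BALB/c spleen but not marrow from BALB/c spleen.

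The Ifi200 family encodes sensors of cytosolic DNA and related nuclear proteins. Ifi213 was at 128, 69.7 and 97.2 TPM in APCmin/+ sorts and at 2.08, 2.47 and 3.19 TPM in BALB/c sorts (log2 fold change 4.76 ± 0.24 SE, limma adjusted p = 1.11e-05). Its marrow values in C57BL/6 mice, 2.21 to 4.70 TPM, were close to those of BALB/c spleen. Ifi202b, a candidate gene for lupus in mice, was at 0, 0.12 and 0 TPM against 25.1, 27.2 and 34.6 TPM, and at no more than 0.12 TPM in all 30 libraries outside BALB/c. C57BL/6 mice are known to make little or no Ifi202b. Ifi211 also fell (-1.12), and Aim2, the inflammasome sensor, was at 87.3, 55.7 and 92.6 TPM against 133, 135 and 137 TPM, a difference under 2-fold. Of 12 members tested, 1 rose and 2 fell, against 3.23% and 7.66% of all genes, with a median of -0.10.

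In the MHC, which presents peptides to T cells, single class I genes differed while the list did not shift. H2-Q2 was at 1.02, 1.02 and 1.90 TPM in APCmin/+ cells and 75.2, 77.7 and 75.1 TPM in BALB/c cells (-5.08 ± 0.18 SE, limma adjusted p = 2.01e-06), and H2-Q1 at no more than 0.09 TPM against 22.8 to 25.9 TPM. H2-Q7, related to the Qa-2 antigen, went the other way with 448, 324 and 424 TPM against 143, 168 and 167 TPM (1.31). H2-Q10 (1.61) and H2-T10 (1.09) also rose. Of 17 tested class I genes 3 were thus higher and 2 lower, against 3.23% and 7.66% of all genes. Among 11 class II genes H2-Eb2 alone was called, at 44.5, 21.4 and 33.1 TPM against 6.47, 7.13 and 6.83 TPM (2.06). H2-Ea-ps, chosen after its values were seen, was at 1.22, 7.30 and 0.21 TPM in APCmin/+ and 2099, 2100 and 2046 TPM in BALB/c sorts. It encodes the alpha chain of the I-E molecule, which C57BL/6 mice are known to lack, and the annotation lists it as a polymorphic pseudogene. H2-Ab1, which encodes a chain of the I-A molecule, was at 1715, 867 and 1219 TPM against 1627, 1723 and 1611 TPM, and its groups overlapped.

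Several receptors of natural killer cells were higher in APCmin/+ sorts, all at low levels. Klra8, the Ly49H receptor that recognises a cytomegalovirus protein, was at 10.0, 9.57 and 8.07 TPM in APCmin/+ sorts and listed at 0 in the 3 BALB/c sorts. Klra4 was at 3.37, 3.38 and 3.06 TPM against 0.16, 0.17 and 0.11 TPM (1.90 ± 0.15 SE, limma adjusted p = 0.000148), and Klrb1c, the NK1.1 antigen, at 4.04, 4.39 and 3.55 TPM against 0.78, 1.06 and 0.89 TPM (1.39). Other members were not called: Klrd1 was at 29.6, 25.8 and 21.6 TPM against 16.2, 17.2 and 18.5 TPM, and the activating receptor Klrk1 at 12.4 to 15.8 TPM against 11.7 to 17.2 TPM. Ccl5, a chemokine of cytotoxic lymphocytes, was at 27.5, 19.8 and 34.8 TPM against 11.4, 8.71 and 16.5 TPM (1.11). In all 7 of 16 members rose and none fell (median 0.92), against 3.23% of all genes called higher and 7.66% lower. With single libraries left out 5 to 9 rose. In the M sorts 2 rose (median -0.10, with 4.83% of all genes called higher), and in the G+M sorts 5 (median 0.67, with 3.93%). The summed level of the list in the G sorts was 137 to 150 TPM in APCmin/+ and 64.3 to 89.2 TPM in BALB/c cells.

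Several Ly6 surface antigens are described here singly. Ly6c1 was at 2.47, 1.74 and 3.99 TPM in APCmin/+ and 90.6, 117 and 120 TPM in BALB/c sorts (log2 fold change -4.92 ± 0.24 SE, limma adjusted p = 8.78e-06). Its near copy Ly6c2 was at 160, 706 and 264 TPM against 103, 126 and 127 TPM and did not pass the test (1.39, adjusted p = 0.0713). How RSEM divided reads between these copies was not tested. Ly6a, the stem cell antigen Sca-1, was at 367, 186 and 250 TPM against 13.2, 22.8 and 28.9 TPM (3.58 ± 0.32 SE, adjusted p = 0.00028). Ly6d, found on early and mature B cells, was at 714, 363 and 494 TPM against 112, 142 and 114 TPM (2.04). Ly6g, a neutrophil surface antigen, was at 63.6, 481 and 186 TPM against 104, 155 and 77.9 TPM, and its groups overlapped (0.73, adjusted p = 0.42).

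Further genes with large changes had varied functions. Oasl2, an antiviral protein induced by interferon, was at 205, 260 and 637 TPM in APCmin/+ cells and 10.3, 13.2 and 13.2 TPM in BALB/c cells (4.62 ± 0.38 SE, limma adjusted p = 0.00016). Gsr, glutathione reductase, was at 236, 414 and 485 TPM against 26.4, 26.1 and 24 TPM (3.78 ± 0.25 SE, adjusted p = 5.3e-05). Apobec3, a cytidine deaminase that restricts retroviruses, was at 406, 253 and 362 TPM against 33.5, 36.2 and 36.8 TPM (3.20). All 3 stood far above BALB/c in every library, as did Eps8l1 (4.84), the villin-like gene Vill (4.54) and Baiap3 (3.45). Dynlt1a also rose (3.95), but shares reads with near copies and is uncertain.

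On the lower side, Col6a4, a collagen chain, was at 0.01, 0.25 and 0.07 TPM in APCmin/+ cells and 56.8, 57.1 and 56.4 TPM in BALB/c cells (-5.71 ± 0.15 SE, limma adjusted p = 5.31e-07). Postn, the matrix protein periostin, was at 0.74, 0.86 and 0.32 TPM against 58.6, 59.7 and 55.2 TPM (-5.18). Ifi44l was at 0, 0.19 and 0 TPM against 34.0, 39.6 and 60.4 TPM (-5.39), and the chemokine Ccl24 at 4.57, 2.06 and 3.39 TPM against 76.7, 75.4 and 88.1 TPM (-4.26). H60b, a ligand of the receptor Klrk1, also fell (-4.34), as did Jhy (-4.60). All 6 separated the 9 BALB/c libraries from the other 30, as did 377 of all 1085 lower calls. They were picked for large falls, which favours such separation. Eno1b (-5.40) and Tpm3-rs7 (-5.18) resemble Eno1 and Tpm3 closely and are uncertain. Nnt, the mitochondrial transhydrogenase that is truncated in C57BL/6J mice and was chosen after its values were seen, was at 12.7, 11.01 and 13.1 TPM against 30.04, 28.8 and 27.9 TPM (-1.18, adjusted p = 0.000836). Its marrow values in C57BL/6 mice ran from 14.9 to 31.8 TPM.

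Red pulp macrophage genes fell together. Spic, which drives the differentiation of these cells, was at 85.8, 32.7 and 61.4 TPM in APCmin/+ sorts and 342, 362 and 438 TPM in BALB/c sorts (log2 fold change -2.74 ± 0.32 SE, limma adjusted p = 0.000958). The groups did not overlap, and APCmin/+ library 2 was lowest. Hmox1, the enzyme that breaks down haem, was at 409, 232 and 384 TPM against 1138, 1208 and 1337 TPM (-1.88 ± 0.23 SE, adjusted p = 0.00126). Slc40a1, the iron exporter ferroportin, was at 340, 261 and 470 TPM against 884, 955 and 1004 TPM (-1.44). The apoptotic cell receptors Mertk (-2.10) and Axl (-2.00), the adhesion molecule Vcam1 (-1.56), the haemoglobin scavenger receptor Cd163 (-1.58) and the complement gene C1qa (-1.66) fell as well. Adgre1, which encodes F4/80, was at 89.5, 42.8 and 61.0 TPM against 116, 131 and 130 TPM (-1.01). It was not called with rescaling, with no filter or in the fit of all 39 libraries. Nor was it called without any single library other than APCmin/+ library 1.

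Of the 20 members, all tested, 17 fell and none rose, against 7.66% of all genes that fell. The median was -1.42 and -1.20 after rescaling. Between 13 and 17 members were called lower under the alternatives, single libraries left out included. The 3 members not called were Slc11a1, Cd5l and Marco. Cd5l was at 86.2, 65.5 and 71.7 TPM in APCmin/+ and 71.7, 73.5 and 74.4 TPM in BALB/c cells, and Marco, a receptor of marginal zone macrophages, also overlapped. The summed level of the list was 3555, 1929 and 2891 TPM in APCmin/+ and 7071, 7585 and 8381 TPM in BALB/c cells (exact two-sided permutation test over libraries, p = 0.1, the smallest it can give). Fewer macrophages in the sort and less of this RNA per cell cannot be told apart in bulk samples. The median of 18 B cell genes was -0.59, with 1 called lower and overlapping sums.

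In the spleen M sorts no member of the red pulp list was called (median -0.53, with 759 genes or 5.36% called lower). Spic there was at 218, 47.9 and 118 TPM in APCmin/+ and 422, 399 and 263 TPM in BALB/c sorts. In the G+M sorts the median of the red pulp list was -1.90, and 1 member was called lower, against 5.36% of all genes. The difference between the G and M contrasts was not called for any of the 20 genes, and for Spic it was -1.03 ± 0.67 SE (limma adjusted p = 0.755). Of 20 monocyte genes 5 fell in the G sorts and none rose, against 7.66% of all genes called lower. The list's median was -0.33, against -0.22 over all genes, and after rescaling -0.11, against -0.02. Those that fell included Fn1 (-2.16), Treml4 (-1.72), Sirpa (-1.04) and Csf1r (-1.42). Sirpa was not called with rescaling, with array weights or without APCmin/+ library 1. Csf1r, the growth factor receptor of the lineage, serves macrophages as well. Ccr2, the chemokine receptor of inflammatory monocytes, was at 8.13, 13.4 and 11.9 TPM in APCmin/+ cells and 9.45, 6.88 and 14.1 TPM in BALB/c cells, so its groups overlapped. Of 6 tested mast cell, basophil and eosinophil genes 3 rose and 1 fell (median 0.83), against 3.23% and 7.66% of all genes. The eosinophil granule protein gene Prg2 was at 46.6, 40.2 and 19.6 TPM in APCmin/+ and 8.97, 11.1 and 11.5 TPM in BALB/c cells (1.58, limma adjusted p = 0.00932), and Hdc (1.86) and Kit (1.04) also rose. That count was 2 without APCmin/+ library 1, APCmin/+ library 3 or BALB/c library 3, and 1 without any other single library. Ccr3, an eosinophil receptor, fell: it was at 47.2, 26.6 and 28.0 TPM against 118, 143 and 153 TPM (-2.03, adjusted p = 0.000832).

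**Figure D3:**
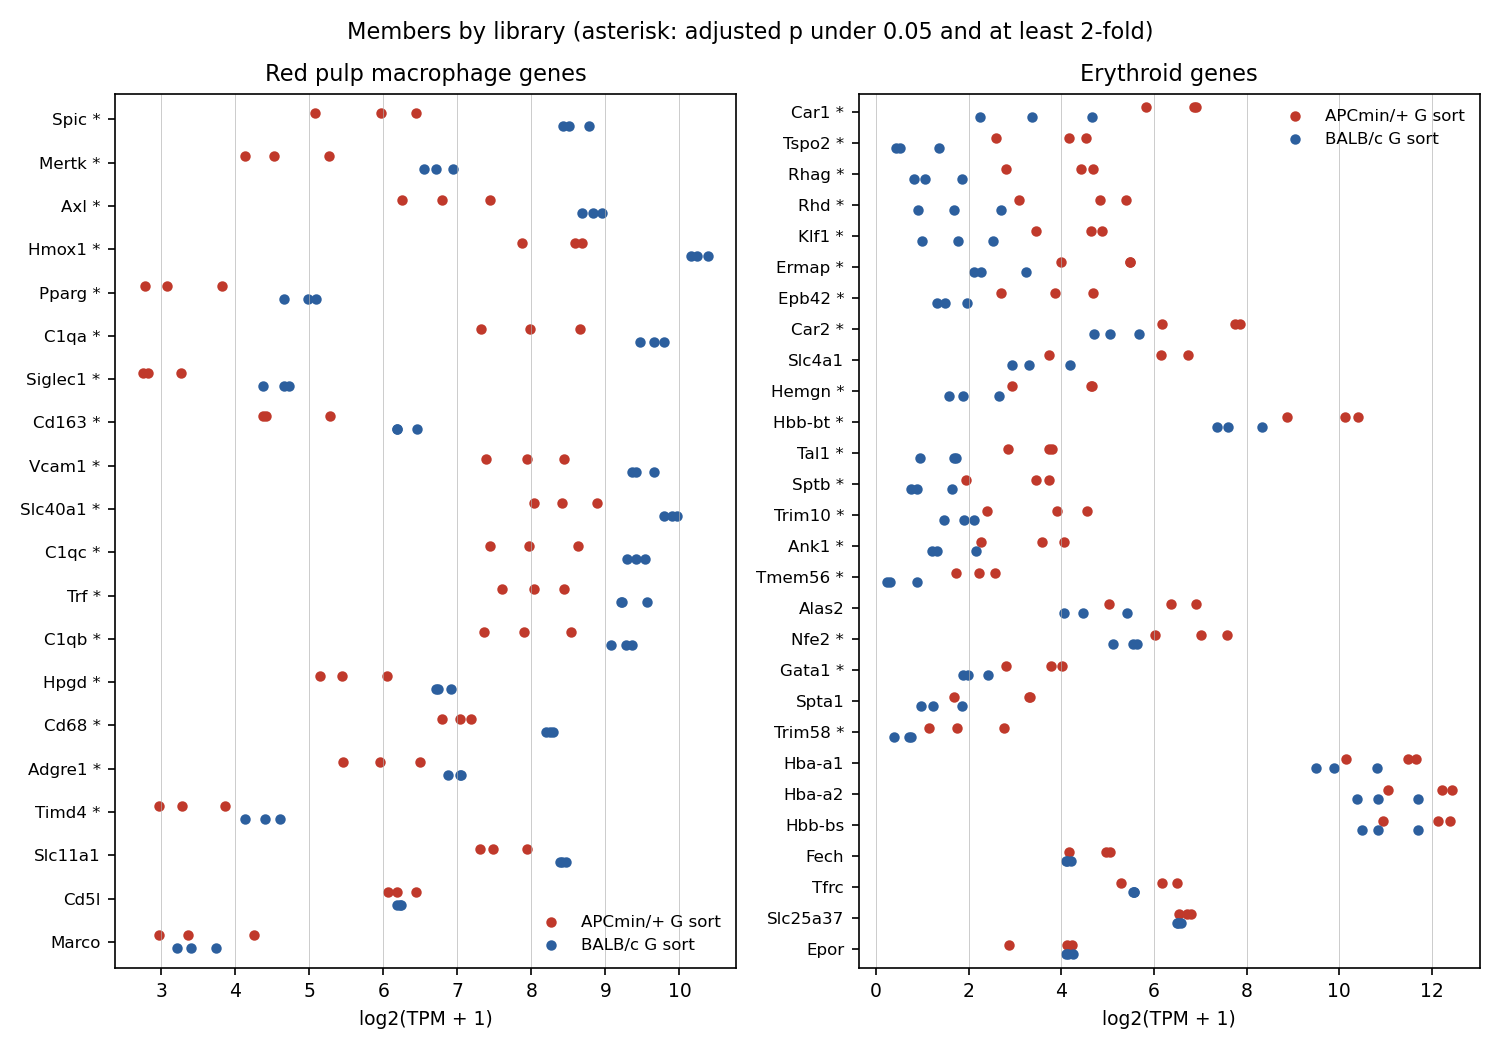
Log2(TPM + 1) by library for 20 red pulp macrophage and 28 erythroid genes, with APCmin/+ G sorts in red above BALB/c G sorts in blue. In 17 macrophage genes (asterisks) the APCmin/+ points lie below BALB/c. Asterisks in the erythroid panel mark genes called higher in APCmin/+ sorts, and points are not labelled by library.

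Erythroid genes rose in APCmin/+ sorts. Klf1, the master regulator of globin and red cell membrane genes, was at 28.4, 24.1 and 9.92 TPM in APCmin/+ libraries and 2.41, 1.00 and 4.79 TPM in BALB/c libraries (log2 fold change 2.56 ± 0.47 SE, limma adjusted p = 0.00797). Library 3 was the lowest of the APCmin/+ and the highest of the BALB/c values. Car1, the red cell carbonic anhydrase, was at 119, 115 and 55.9 TPM against 9.34, 3.76 and 24.5 TPM (3.10 ± 0.57 SE, adjusted p = 0.0082). The Rh proteins Rhag (2.73) and Rhd (2.68), Tspo2 (3.00) and the lineage factors Tal1 (2.00) and Gata1 (1.44) rose too. The blood group protein Kel, chosen after its values were seen, was at 46.6, 95.2 and 15.8 TPM against 3.75, 2.62 and 6.73 TPM (3.06).

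Of 29 erythroid genes tested, from 30 listed, 19 rose and none fell, against 3.23% of all genes that rose. The median was 1.79. The count leaned on single libraries: 8 were called without APCmin/+ library 2, 9 without BALB/c library 2, 11 without BALB/c library 1 and 22 without APCmin/+ library 3, and 8 with no filter on low values. The globins were the most abundant members and mostly overlapped. Hba-a1 was at 2874, 3227 and 1139 TPM in APCmin/+ and 952, 723 and 1789 TPM in BALB/c sorts (1.03, adjusted p = 0.145). Hbb-bt alone was called among them, at 1118, 1350 and 469 TPM against 193, 162 and 320 TPM (2.04, adjusted p = 0.0123). The list's summed level, mostly globin, was 14276, 16796 and 6261 TPM against 5115, 3951 and 9137 TPM, which also overlapped. Tfrc and Epor, the receptors for transferrin and erythropoietin, were not called. In the M sorts 19 of the 29 rose as well (median 2.47, with 4.83% of all genes called higher), and in the G+M sorts 23 (median 2.75, with 3.93%).

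Some genes of haem synthesis and cell division rose as well. Of 13 haem synthesis genes 3 rose, against 3.23% of all genes, and single libraries left out gave 1 to 4. The risen genes included the mitochondrial transporter Abcb10 (1.27) and Cpox (1.11). Abcb10 was at 19.3, 20.9 and 10.6 TPM in APCmin/+ and 6.03, 5.71 and 6.83 TPM in BALB/c cells. Top2a, the topoisomerase of dividing cells, was at 50.7, 58.9 and 27.1 TPM against 16.9, 19.3 and 18.8 TPM (1.20 ± 0.27 SE, limma adjusted p = 0.0182), with APCmin/+ library 3 again the lowest of its group. Of 20 genes of G2 and M phase 10 rose, against 3.23% of all genes, among them the kinase Cdk1 (1.21), cyclin Ccna2 (1.38) and survivin, Birc5 (1.40). That count was 17 without APCmin/+ library 3, 6 without APCmin/+ library 1 and 2 without APCmin/+ library 2. Without BALB/c libraries 1, 2 and 3 it was 0, 1 and 3. It was 13 with rescaling, 2 with no filter and 1 with array weights. Of 18 S phase genes 6 rose, including the replication licensing factors Cdc6 (1.58) and Mcm6 (1.30), and 3 to 7 did so when a library was left out, 3 without APCmin/+ library 2, BALB/c library 1 or BALB/c library 2. In both phases none fell. In the M sorts 19 of the 20 G2 and M phase genes and 11 of the 18 S phase genes rose, against 4.83% of all genes.

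**Figure D4:**
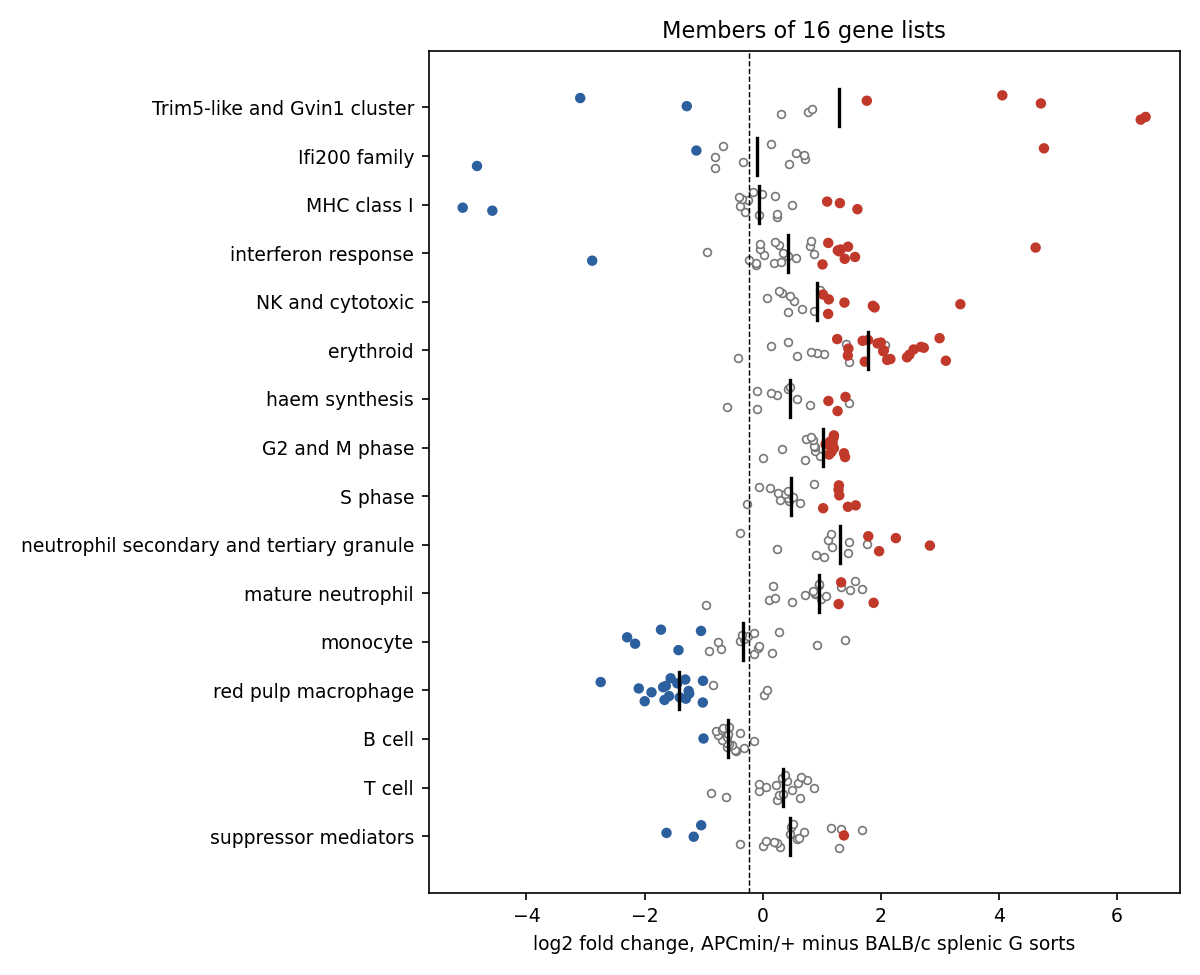
Log2 fold change of each tested member of 16 lists in the splenic G sorts, filled red or blue where called higher or lower in APCmin/+ cells; the bar is the list's median and the dashed line the median of all tested genes, -0.22. The erythroid median is 1.79 and the red pulp macrophage median -1.42, while B cell members cluster near -0.59.

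Neutrophil genes were higher on average, but the 3 APCmin/+ libraries spread widely. The summed level of 20 mature neutrophil genes was 23134, 108322 and 55252 TPM in APCmin/+ and 22728, 23025 and 15968 TPM in BALB/c sorts (exact two-sided permutation test, p = 0.1, the smallest it can give). APCmin/+ library 1 lay at the level of BALB/c, and libraries 2 and 3 lay above it. Of the 20 genes 3 were called higher and none lower, against 3.23% and 7.66% of all genes. The 3 were the C-type lectins Clec4e (1.88) and Clec4d (1.29) and the amplifying receptor Trem1 (1.33). Clec4e was at 52.0, 180 and 219 TPM in APCmin/+ and 40.5, 33.6 and 28.5 TPM in BALB/c cells (1.88 ± 0.48 SE, limma adjusted p = 0.0308). S100a8 (1.68 ± 0.58 SE, adjusted p = 0.0757), S100a9 (1.33, adjusted p = 0.14) and the chemokine receptor Cxcr2 (0.99, adjusted p = 0.105) did not pass. Without APCmin/+ library 1 the count was 15 of 20, while 683 of all 14160 genes were called higher. Without any other single library the count was 0. It was 11 with array weights, 6 with the replicate number as a block and 0 with no filter. Rescaling and the fit of all 39 libraries each gave 4.

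Granule genes showed the same spread. Mmp9, a gelatinase of tertiary granules, was at 437, 1559 and 989 TPM in APCmin/+ and 290, 245 and 227 TPM in BALB/c sorts (1.79 ± 0.41 SE, limma adjusted p = 0.0201). The collagenase Mmp8 (2.26), the chitinase-like Chil3 (1.97) and Itgb2l (2.83) also rose. This made 4 of 14 secondary and tertiary granule genes, against 3.23% of all genes. That count was 11 without APCmin/+ library 1, 1 without APCmin/+ library 3 and 2 without BALB/c library 1 or 2. It was 0 without BALB/c library 3 or with no filter, 7 with array weights, and 9 in the fit of all 39 libraries. With the replicate number as a block it was 6. Ltf, lactoferrin, was at 1312, 10400 and 3039 TPM against 1191, 1712 and 978 TPM and was not called. None of 7 primary granule genes was called, but 4 were higher without APCmin/+ library 1, 1 was lower without APCmin/+ library 2, and 2 to 3 were higher with a pseudocount of 0.1, array weights or the fit of all 39 libraries. Mpo, myeloperoxidase, was at 1.63, 20.1 and 5.94 TPM against 0.39, 0.44 and 1.12 TPM (2.17, adjusted p = 0.0512). In the spleen M sorts 14 of the 20 mature neutrophil genes rose (4.83% of all genes were called higher there), and S100a8 there was at 9300, 32700 and 25437 TPM in APCmin/+ and 1310, 1754 and 1339 TPM in BALB/c cells.

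**Figure D5:**
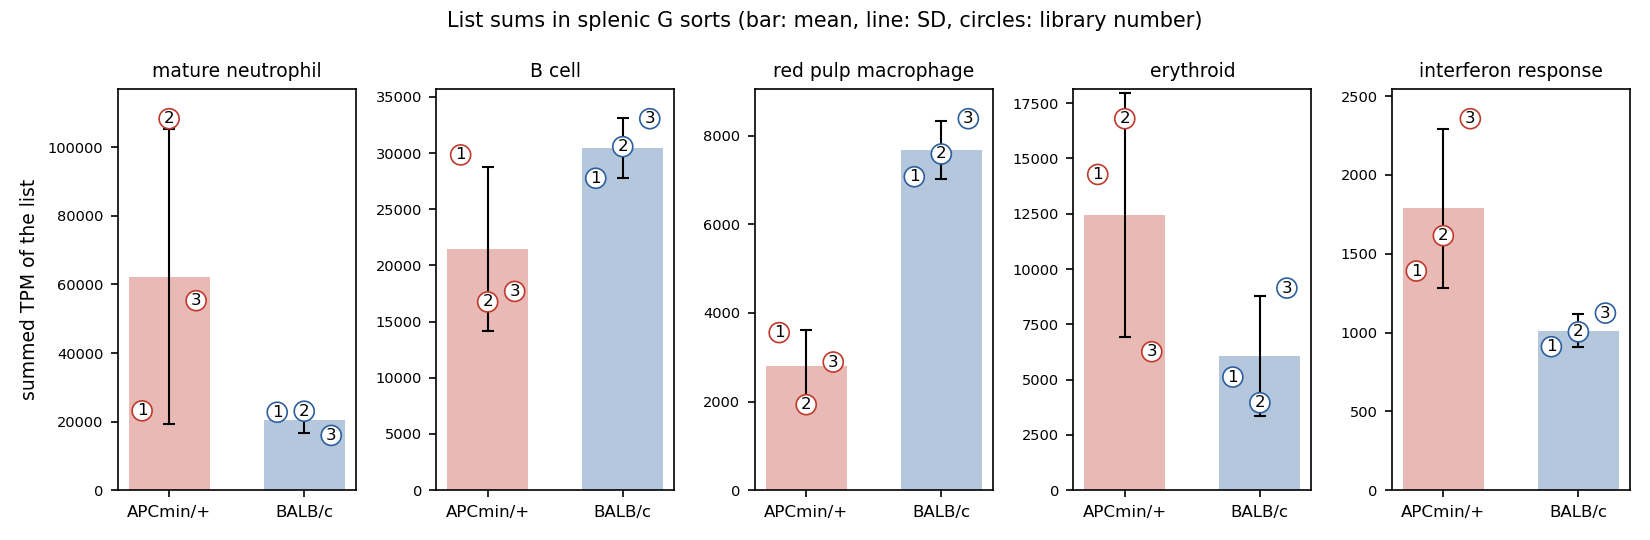
Summed TPM of 5 gene lists in the 3 APCmin/+ (left) and 3 BALB/c (right) splenic G sorts; bars are means, lines SD and circled numbers the libraries. APCmin/+ library 1 is the lowest of its group for mature neutrophil genes (23134 TPM) and the highest for B cell genes (29838 TPM).

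The B cell list, at 29838, 16751 and 17690 TPM in APCmin/+ and 27762, 30572 and 33061 TPM in BALB/c cells, ran against the neutrophil list in APCmin/+ library 1. The part of these B cell transcripts in the neutrophil values was not tested. Of 18 B cell genes Fcer2a, which encodes CD23, alone was called, at 315, 158 and 201 TPM in APCmin/+ and 436, 439 and 435 TPM in BALB/c cells (-1.01, limma adjusted p = 0.0224), and it was not called without any one library other than APCmin/+ library 1. None of 18 T cell genes was called. Beside both lists, 3.23% of all genes were called higher and 7.66% lower. Of 14 plasma cell genes 3 rose and 1, Iglc2, fell (median -0.32), against 3.23% and 7.66% of all genes. The summed level of the list, 21997 to 43930 TPM in APCmin/+ and 30076 to 40895 TPM in BALB/c cells, overlapped. The 3 that rose encode immunoglobulin constant regions: Igha was at 5378, 2969 and 2224 TPM against 650, 208 and 986 TPM (2.68 ± 0.57 SE, adjusted p = 0.0148), Ighg2b at 445, 489 and 256 TPM against 48.7, 33.1 and 89.6 TPM (2.84), and Ighg1 had a log2 fold change of 2.53. Igha was not called without APCmin/+ library 2, with no filter or with array weights, and Iglc2 was not called without any single library other than APCmin/+ library 1. Ighg2c, chosen after its values were seen, was at 211, 451 and 262 TPM against 18.8, 17.2 and 21.9 TPM (3.86), and is known as the C57BL/6 counterpart of a gene that BALB/c mice carry in another form.

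Mediators of suppression did not move as a group. Of 20 tested genes Nt5e, which makes adenosine from AMP, rose (1.38, limma adjusted p = 0.0424) and Ptgs1, Tgfb1 and Nox1 fell. Over all genes 3.23% were called higher and 7.66% lower. Ptgs1, the constitutive cyclooxygenase, was at 45.0, 38.7 and 32.8 TPM in APCmin/+ cells and 112, 116 and 136 TPM in BALB/c cells (-1.63 ± 0.15 SE, adjusted p = 0.000361). Tgfb1, a cytokine that restrains T cells, was at 96.6, 69.1 and 114 TPM against 199, 184 and 184 TPM (-1.04, adjusted p = 0.00742), and was not called with rescaling, with array weights or without APCmin/+ library 2. Nt5e was at 3.94, 14.97 and 5.73 TPM in APCmin/+ and 2.06, 2.04 and 2.26 TPM in BALB/c cells, with APCmin/+ library 2 the highest. Without APCmin/+ library 1 the number of risen members was 5, and without any other library 0. It was 6 with array weights and 0 with rescaling or no filter. The replicate number as a block and the fit of all 39 libraries each gave 3. Arg1 and Nos2, the arginine-consuming enzymes most often used to define such cells, were at no more than 0.51 and 0.20 TPM in the 6 libraries and were not tested.

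Genes of the interferon response were higher in part. Of 27 members 9 rose and 1 fell (median 0.43), against 3.23% of all genes called higher and 7.66% lower. Rsad2, the antiviral protein viperin, was at 38, 68.8 and 65.7 TPM in APCmin/+ and 16.1, 21.5 and 22.3 TPM in BALB/c cells (1.45 ± 0.25 SE, limma adjusted p = 0.00559). Ifit3 (1.56), Ifit1 (1.39) and the synthetases Oas3 (1.32), Oas1a (1.30) and Oas2 (1.27) rose too, as did Oasl2 above. Ifi44 fell to 3.39, 1.56 and 2.79 TPM, against 19.4, 23.7 and 33.1 TPM in BALB/c cells (-2.89). The regulators Irf7 (112, 124 and 160 TPM against 122.9, 116 and 149 TPM) and Stat2 overlapped. Leaving out libraries gave 5 to 11 risen members, with 5 without APCmin/+ library 2, APCmin/+ library 3 or BALB/c library 1. In the M sorts 3 of the 27 genes rose and 2 fell, against 4.83% and 5.36% of all genes. In the G+M sorts 7 rose and 1 fell, against 3.93% and 5.36%. Among 16 guanylate-binding proteins and related GTPases in the G sorts, Gbp6 rose (1.37) and Gbp2b (-3.96) and Gbp8 (-1.43) fell.

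Metabolic and stress genes moved in part. Of 19 glycolysis and hypoxia genes 4 rose, against 3.23% of all genes. They were the lactate exporter Slc16a3 (1.61), Egln3 (1.51), Eno1 (1.36) and Gapdh (1.10). Eno1 was at 272, 508 and 361 TPM in APCmin/+ and 148, 148 and 133 TPM in BALB/c cells (1.36 ± 0.22 SE, limma adjusted p = 0.00457), although its reads can be shared with Eno1b, which went the other way. The count was 8 without APCmin/+ library 1, 2 without APCmin/+ library 2 or BALB/c library 2, and 1 without APCmin/+ library 3 or BALB/c library 3. Of 19 immediate early and heat shock genes 2, Hspa8 and Ier3, rose and none fell (median 0.28), against 3.23% of all genes called higher. Hspa8, a chaperone, was at 1027, 1275 and 1300 TPM against 511, 462 and 475 TPM (1.31, adjusted p = 0.0012). Ier3 was not called with no filter or without any single library other than APCmin/+ library 1. None of 13 mitochondrially encoded genes and none of 10 Apc and Wnt target genes was called, against 10.9% of all genes. Myc was at 55.8, 24.5 and 48.2 TPM against 47.9, 49.9 and 54.2 TPM.

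The G, M and G+M spleen sorts shared many calls. Of the 1543 genes called in the G sorts, 822 were called in the same direction in the M sorts, which is 53.3% of the G calls and 57% of the 1443 M calls (10.2% of genes). In the G+M sorts 988 were, 64.0% of the G calls and 75.1% of the 1316 G+M calls (9.29% of genes). No libraries are shared between these comparisons, but the labels do not say whether animals are. Deviations of same-numbered G and M libraries from their group means correlated at 0.424 to 0.639 in APCmin/+ mice. In BALB/c mice they correlated at 0.0528 to 0.0777. The shared calls are therefore not shown to be independent. The G+M comparison carries a sex difference that the G comparison does not, since Xist was at 0.10, 0.05 and 325 TPM in the APCmin/+ and 428, 378 and 364 TPM in the BALB/c G+M sorts. Trim12a, Gvin1 and Ifi202b were called in all 3 sorts. A direct test of the difference between the G and M contrasts over 12 libraries called 12 genes (0.0847%), 9 more positive in G sorts (0.0636%) and 3 more negative (0.0212%), while 1047 genes had unadjusted p-values below 0.05. The count was 28 without library 3 of the APCmin/+ M sorts and 6 with a pseudocount of 0.1. It was 120 with the replicate number as a block within strain, where 9 of 20 mature neutrophil genes were more negative in G sorts. In a fit of all 39 libraries it was 167, and 4 of the 20 mature neutrophil genes were more negative in the G sorts. A gene not called here is not shown to have had the same contrast in both sorts.

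Among those 12, Colec12, a scavenger receptor, differed most. It was at 0.34, 0.21 and 0.24 TPM in APCmin/+ and 4.55, 4.60 and 4.82 TPM in BALB/c G sorts, and at 0.59, 0.26 and 0.89 TPM in APCmin/+ and 96.2, 74.9 and 97.7 TPM in BALB/c M sorts (difference 3.69 ± 0.24 SE on the log2 scale, limma adjusted p = 0.000115). Adgrg5, an adhesion receptor, was at 8.58, 8.07 and 8.71 TPM against 7.54, 8.80 and 8.83 TPM in G sorts and at 5.90, 8.95 and 11.2 TPM against 85.5, 70.5 and 120 TPM in M sorts (3.28 ± 0.32 SE, adjusted p = 0.00115). Colec12 was called lower in the G sorts too, by less than in the M sorts, whereas the groups of Adgrg5 overlapped in the G sorts. Siglech, a marker of plasmacytoid dendritic cells, behaved like Adgrg5 (2.90).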

How the data were processed

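RNA of cells sorted into Trizol was made into stranded mRNA libraries and sequenced as single reads, per the labels' protocols. The submitters' processing notes name bcl2fastq 2.18, STAR 2.6.1c, RSEM and the build mm10, with the annotation not given in the sources used here. RSEM TPM was deposited by the authors as 1 table of 53465 genes in 39 libraries, in 13 groups of 3. TPM keeps no depth, so the precision of single values is unknown. Gene IDs matched GENCODE M21 (GRCm38) for 53274 genes, and 26 symbols stored as dates were restored by ID.

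TPM was taken to log2 with a pseudocount of 1, genes were kept with at least 1 TPM in at least 3 of the 6 libraries, and limma 3.58.1 (R 4.3.3) was fitted to the 6 libraries with a variance trend and Benjamini-Hochberg adjustment over all genes tested. The difference between G and M contrasts was an interaction term over 12 libraries. The procedure was tested on simulated data. Correlations of same-numbered deviations were -0.213, 0.0864 and -0.170, so replicate numbers were not used as pairs. The labels do not say that replicates are separate animals, and p-values measure only the spread between these samples.

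The comparison, the gene lists and the markers were chosen with earlier results of these data known. Named were a fixed panel, the 12 largest and 12 smallest fold changes among non-overlapping called genes with a group mean of at least 10 TPM (no provisional symbols, receptor segments or pseudogenes), up to 6 called members of each list, the 3 most abundant members of lists with no call, and the 6 genes with the smallest adjusted p for the difference between sorts. Other members of the lists named in the text, called or not, were chosen after their values were seen. Promoters are from RefSeq. Some members of the lists are counted but not reported here by name.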

Additional observations from a re-analysis of the deposited data

Results flagged for a closer look

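In 12 genes the APCmin/+ against BALB/c contrast differed between the spleen G and M sorts, by limma's interaction term with adjusted p under 0.05 and a difference of at least 2-fold. Values are the G contrast minus the M contrast on the log2 scale. In 9 genes the difference was positive: Colec12 3.69, Adgrg5 3.28, the kallikrein Klk1 3.13, Siglech 2.90, Emp1 2.66, Cd300c 2.00, Ifi202b 1.99, the lysosomal sulfatase Arsb 1.83 and the chemokine receptor Ccr9 1.52. In 3 genes it was negative: Gm39459 -3.32, Gm25777 -3.03 and Gm14654 -2.49.

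Klk1 was at 2.09, 1.37 and 1.39 TPM in APCmin/+ and 1.66, 1.66 and 1.65 TPM in BALB/c G sorts, and at 1.76, 1.88 and 2.01 TPM in APCmin/+ and 19.6, 22.9 and 34.0 TPM in BALB/c M sorts. Arsb was at 8.13 to 8.54 TPM in APCmin/+ and 8.47 to 9.17 TPM in BALB/c G sorts, and at 13.4 to 16.2 TPM in APCmin/+ and 52.7 to 63.2 TPM in BALB/c M sorts. Both thus overlapped in the G sorts and were lower in APCmin/+ cells in the M sorts. Ifi202b was near 0 in APCmin/+ cells of both sorts, and its BALB/c values were 25.1 to 34.6 TPM in G and 83.8 to 162 TPM in M sorts. Gm39459 was at no more than 0.10 TPM in APCmin/+ cells of both sorts, and at 7.69 to 15.01 TPM in G and at most 0.50 TPM in M sorts of BALB/c mice.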

How the results depend on the processing

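Of 127 named genes called in the G contrast, 76 were called under all 14 alternatives, 7 more under each of the alternatives that tested them, and none reversed. The number of higher genes, 458, was 298 with no filter and 302 with a minimum of 5 TPM, and without a fold minimum 3041 genes were called, 2364 of them lower. In the M contrast rescaling left 469 lower genes.
The 12 genes of the difference between sorts became 6 (5 positive, 1 negative) with a pseudocount of 0.1 and 167 (68 and 99) in a fit of all 39 libraries. Leaving out single libraries gave 8 to 28, 6 to 25 positive and 2 to 9 negative, with 9 negative without replicate 1 of the APCmin/+ M sorts. The cause was not tested.
With the replicate number as a block the G contrast had 1635 calls, 533 higher and 1102 lower, and the difference between sorts had 120, 59 positive and 61 negative, with 9 of 20 mature neutrophil genes more negative in G sorts. Same-numbered G and M libraries correlated at 0.424 to 0.639 in APCmin/+ and 0.0528 to 0.0777 in BALB/c mice, so the numbers do not pair all samples. In the G contrast 1 of 3 libraries correlated best with its own number.
Uncalled fold changes near 0 changed sign. With rescaling these were Apc 0.049, Lck 0.16, mt-Co1 0.20, mt-Atp8 0.0064, Il2rg 0.0028, Klk1 0.11 and Arsb 0.14, and the log2 ratios of summed levels for the plasma cell 0.074, guanylate-binding protein 0.073, mitochondrially encoded 0.062, Apc and Wnt target 0.18 and lymphocyte deficiency 0.046 lists. Lck was 0.042 with array weights. With single libraries left out Apc ran from -0.26 to 0.0018, Ccr2 from -0.073 to 0.40, Lck from -0.13 to 0.026, Myc from -0.54 to 0.034, Lgals4 from -0.080 to 0.12, Klk1 from -0.16 to 0.033 and Adgrg5 from -0.055 to 0.047. With 3 libraries a group and no counts, low genes are the least certain.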
